A study of Mus musculus with 8 samples.

Results

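The 37 genes described here encode SR proteins and other splicing factors that carry arginine-serine (RS) domains, with Srek1 among them. A list of gene names chose them, and every CLIP peak whose midpoint lay in the same-strand body of a listed gene was assigned to it (GENCODE release M21, mouse build mm10). The list was drawn around Srek1, which was selected on the fold enrichment of its site, among the strongest with Flag-MBD6 and lower with Flag-MBD5, and the question was whether the family follows. These genes held 451 of the 29555 peaks of the 4 libraries and 162 of the 12074 sites into which overlapping peaks were joined. The peaks covered 36 of the 37 genes. Srsf9, which encodes a small SR protein, had no peak in any library.

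SR proteins bind pre-mRNA through RNA recognition motifs, often at purine-rich exonic enhancers, and recruit the U1 and U2 snRNPs through their RS domains. Kinases such as the CLKs phosphorylate these domains and set the activity of the proteins. Many SR genes also control their own level through a poison exon, an alternative exon with an early stop codon whose inclusion sends the transcript to nonsense-mediated decay (NMD). MBD5 and MBD6 are related methyl-CpG-binding-domain proteins that associate with the PR-DUB histone deubiquitinase complex.

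The peaks came from CLIP-seq, in which protein and RNA are crosslinked by ultraviolet light, immunoprecipitated and sequenced, in mouse embryonic stem cells by the cell line label, whereas the source label gives embryos. Each line carried a stable transgene, human MBD5 or human MBD6 joined to a Flag tag and selected with hygromycin, so the groups are Flag-MBD5 CLIP and Flag-MBD6 CLIP with 2 libraries each, and the values are those of overexpressed human proteins in mouse cells. The characteristics in the labels and the study's methods give a Flag antibody, whereas the extraction protocol in the labels gives an antibody against MBD6. RNA was trimmed with RNase T1, which cuts after G. No comparison draws on the 4 input libraries themselves. Depth was 2.14 times higher with Flag-MBD6, by totals estimated from the peak lists (478790 and 500143 against 983918 and 1111742 reads). The 2 libraries of a protein differed by less than sampling noise (chi-square per degree of freedom of 0.518 over 683 sites for Flag-MBD5 and 0.431 over 274 sites for Flag-MBD6, against 3.72 to 4.39 over 464 sites between proteins). The study's methods call such libraries biological replicates. Because of the small spread each protein was counted here as 1 sample, and no comparison between the proteins has a test. Of 10 pluripotency markers 8 had a site, and of 10 fibroblast markers 1 had.

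The sites that carry the results are shown by the first 30 bases at their 5′ end, read 5′ to 3′ from GENCODE transcripts (release M21, build mm10). In the next 7, capitals mark GAAGAA, a purine-rich hexamer of the kind that SR proteins bind in exonic enhancers. The first is the strong Srek1 site, and Son is a site with a large difference between the proteins. The 3 between them are examples of other strong sites, ranked 1, 5 and 9 in the family by mean fold enrichment. These 3 all hold GAAGAA, which is not typical, since it occurred in 15.6% of the family's windows against 18.3% of all windows. The last pair are Srrm2 sites among the 5 smallest differences, and only the first of them had both Flag-MBD6 values below both Flag-MBD5 values.
Srek1, chr13:103752654-103752683, minus strand: cgagaaaaggtgaaggaaagagtgaaggag
Srrm1, chr4:135322462-135322491, minus strand: tcaagaaggaggtggGAAGAAaaaGAAGAA
Srsf11, chr3:158012419-158012448, minus strand: acataaaaaagaGAAGAAGAAagataagga
Rbm25, chr12:83663974-83664003, plus strand: tctagaaactgGAAGAAgagaaaggcaaaa
Son, chr16:91654688-91654717, plus strand: tcaaagaagcataaaaagcacaaaaacaaa
Srrm2, chr17:23811672-23811701, plus strand: tcgagctcatcggtcaacttctgcggactc
Srrm2, chr17:23822516-23822545, plus strand: agctcctcctcctcctcctcttcctcttct

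The next 4 lie in exons that no protein-coding transcript of the gene uses, 3 of them in NMD transcripts and that of Srsf10 in a non-coding transcript. Capitals again mark GAAGAA.
Tra2a, chr6:49253044-49253073, minus strand: aagaatgtggaagataaatcaagataaaag
Tra2b, chr16:22259225-22259254, minus strand: ttGAAGAAggaaaatgcggaagtcgtcatt
Srsf7, chr17:80204707-80204736, minus strand: attGAAGAAaacatctagatgcagcgatcg
Srsf10, chr4:135858919-135858948, plus strand: gcaagtagacaagccaaagacctcttaagg

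The last 3 lie at matching places in the 3 Luc7l paralogs. Here capitals mark the longest run that the Luc7l and Luc7l2 windows share (22 bases) and that the Luc7l3 window shares with Luc7l2 (10 bases).
Luc7l, chr17:26267275-26267304, plus strand: CTAGGAGCTGAAGGAAATGTGGacgaatcc
Luc7l2, chr6:38591340-38591369, plus strand: tggaacaaCTAGGAGCTGAAGGAAATGTGG
Luc7l3, chr11:94300031-94300060, minus strand: attgaagagttaggatCTGAAGGAAAggta

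Most of these splicing genes had reproducible Flag-MBD6 regions, and fewer had Flag-MBD5 regions. A region is a merged peak found in both libraries of a protein. Flag-MBD5 regions lay in 25 of the 37 genes and Flag-MBD6 regions in 34, against 7.8% and 13.8% of all protein-coding genes. Among protein-coding genes with any site the shares were 40.1% and 71%. The 9 genes with a Flag-MBD6 region and no Flag-MBD5 region were Srsf5, Srsf6, Srsf7, Thrap3, Nktr, Luc7l, U2af2, Ccnl1 and Ccnl2. Srsf3 and Rnps1 had peaks in single Flag-MBD6 libraries only. A peak list shows transcripts that are abundant enough to give reads, and expression was not measured in these files, so a gene's number of peaks cannot be separated from its level.

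The number of peaks varied widely across the family. Srrm2, which encodes a large scaffold protein of nuclear speckles, had 15 and 14 peaks with Flag-MBD5 against 17 and 14 with Flag-MBD6. Srrm1, its partner in splicing coactivation, had 9 and 9 against 13 and 13. Family peaks numbered 80 and 78 with Flag-MBD5 against 145 and 148 with Flag-MBD6, which was 1.45% to 1.57% of the peaks of each library. Nktr, a cyclophilin with RS repeats, had 0 and 1 against 7 and 6 peaks. Srek1 had 1 and 2 against 4 and 5. The map of peaks per gene and library shows more Flag-MBD6 than Flag-MBD5 peaks for most genes, with Srrm2, Snrnp70, Acin1 and Tra2b close to equal numbers.

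**Figure D1:**
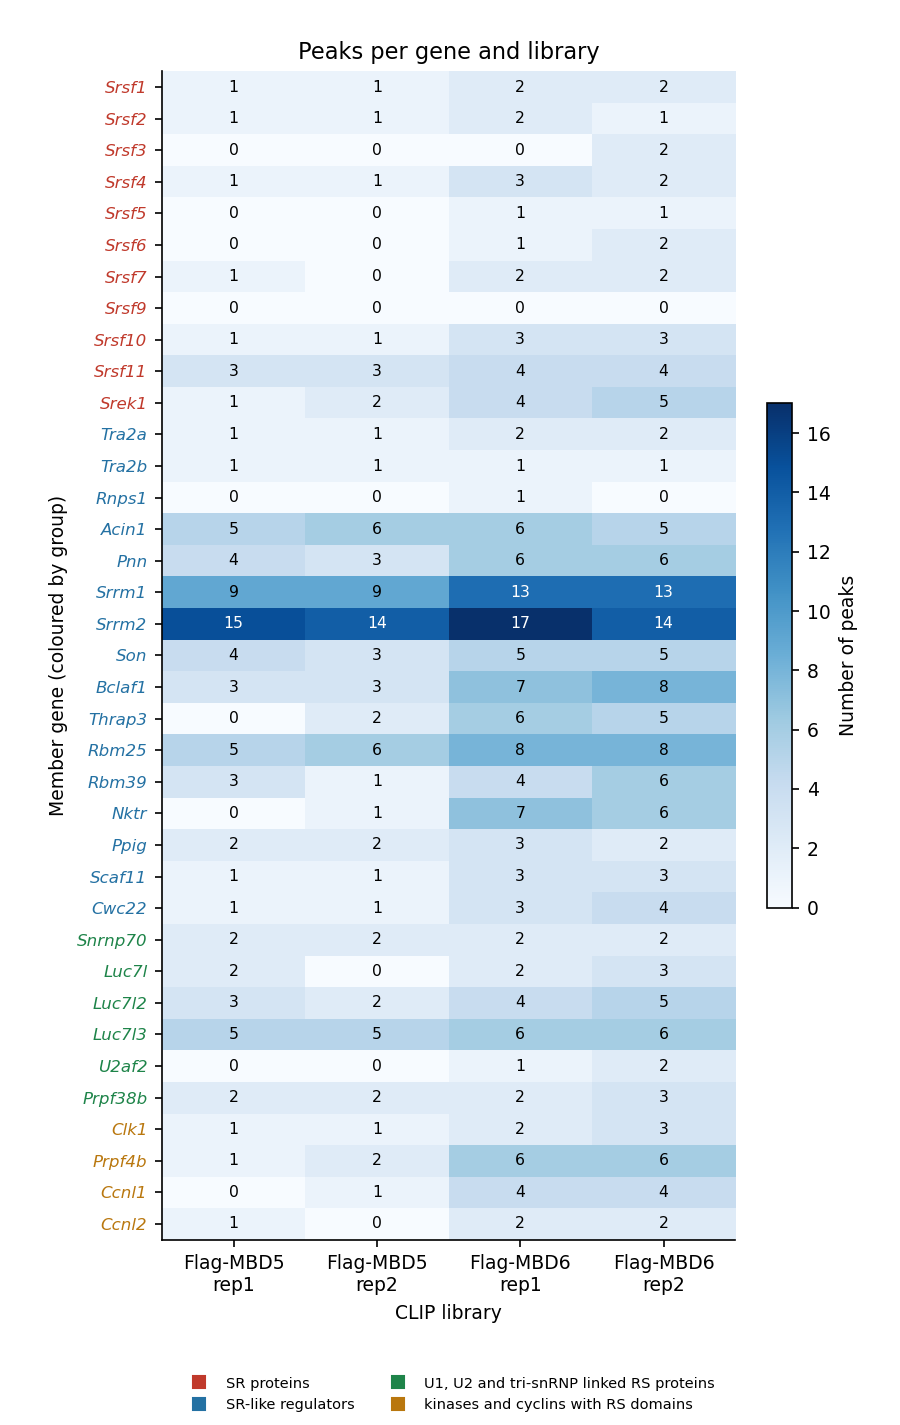
Number of peaks in each of the 37 genes (rows, gene names coloured by group) in each of the 4 CLIP libraries (columns), with the number printed in each cell. Srrm2 has 15, 14, 17 and 14 peaks, Srrm1 has 9, 9, 13 and 13, and Srsf9 has 0 in each library.

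Flag-MBD5 regions of the family were nearly a subset of the Flag-MBD6 regions. Of 67 Flag-MBD5 regions in these genes 65 overlapped a Flag-MBD6 region by at least 1 bp (97.0%, 95% Wilson interval 89.8 to 99.2), against 90.02% of all Flag-MBD5 regions. Both exceptions lay in Srrm2 and had a peak in 1 Flag-MBD6 library. In the other direction 63 of 127 Flag-MBD6 regions were shared (49.6%, 41.1 to 58.2), against 47.7% of all Flag-MBD6 regions. Intervals here and below cover counting error only.

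Sites that both libraries of one protein held alone were all Flag-MBD6 sites. Of the 162 sites, 47 had peaks in both Flag-MBD6 libraries and neither Flag-MBD5 library (29.0%, 22.6 to 36.4), against 20.6% of all sites. No site had the reverse pattern, with a Wilson upper bound of 2.32%, against 1.28% of all sites. These 47 sites lay in 29 genes and were modest in reads. From the depth alone a Flag-MBD5 library would hold a median of 9.34 reads at them, and for none would it hold as many as the median summit of the family's Flag-MBD5 peaks (21.5 reads). Only 1 of the 47 would fall under the lowest such summit (5 reads). Depth and protein can therefore not be told apart for single sites of this kind.

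The 6 strongest of the 47 lay in coding exons of 6 genes. In Ccnl1, an RS-domain cyclin, the site in exon 11 of 11 (chr3:65946734-65946949) had 33 and 44 summit reads and a fold enrichment of 22.3 and 28.3. In Prpf4b, which encodes a kinase of the tri-snRNP, the site in exon 4 of 15 (chr13:34888181-34888387) had 42 and 29 reads and a fold enrichment of 26.7 and 17.75. Both sites sat on the lowest background rate of the library. In Srsf1, the founding SR protein, the site at codon 199 (chr11:88049440-88049620) had 23 and 41 reads. The Srsf4 site at codon 358 (chr4:131900654-131900918) had 24 and 38 reads, and the Srsf6 site at codon 206 (chr2:162934240-162934404) had 29 and 32. The Luc7l site at codon 148 (chr17:26267275-26267443) had 30 and 28 reads.

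The remaining comparisons use the 64 family sites with a peak in all 4 libraries, among 3566 such sites in all. These 64 lay in 25 genes. The deposited fold enrichment is the number of reads at the summit plus 1, over the local background rate plus 1, so at a low background it rises with depth. Summaries are therefore given on 3 scales, the fold enrichment, the summit reads scaled to the estimated depth, and the reads over the background rate without the added 1. Each is a log2 difference, the mean of the Flag-MBD6 libraries minus that of the Flag-MBD5 libraries, and a difference with no scale named is one in fold enrichment.

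The family as a whole stood slightly toward Flag-MBD6 against all sites, by an amount that depended on the scale. The median difference in fold enrichment was 0.58 (quartiles 0.19 and 0.99) over the 64 sites and 0.41 over all sites, and 41 of the 64 exceeded the latter. In scaled reads the medians were 0.08 and -0.33, and 47 of 64 exceeded the median of all sites. Without the added 1 the medians were 0.06 and -0.10, and 36 of 64 exceeded it. Leaving out Srek1, which the list was built around, left the fold enrichment median at 0.58. Leaving out the 12 sites of Srrm2 instead gave 0.74.

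A site was called higher in one protein when the mean fold enrichment differed at least 2-fold and the libraries of the 2 proteins did not overlap. Of the 64 sites 16 were called higher in Flag-MBD6 (25%), against 15% of all sites. Without Srek1, whose values chose the list, 15 of 63 were so called (23.8%). None of the 64 was called higher in Flag-MBD5, against 0.869% of all sites. In scaled reads 3 were called higher in Flag-MBD6 and 3 in Flag-MBD5, against 0.897% and 9.9% of all sites. Without the added 1 the counts were 4 and 1, against 4.46% and 8.1%. Centring the fold enrichment on the median of all sites gave 4 and 2, against 3.7% and 4.09%, and centring the scaled reads gave 9 and 0, against 3.76% and 2.22%. By the order of the libraries alone, 45 sites were higher with Flag-MBD6 and 3 with Flag-MBD5 in fold enrichment, against 55.7% and 10.5% of all sites. The split of calls between the proteins thus rested on the scale, in this family as over all sites.

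**Figure D2:**
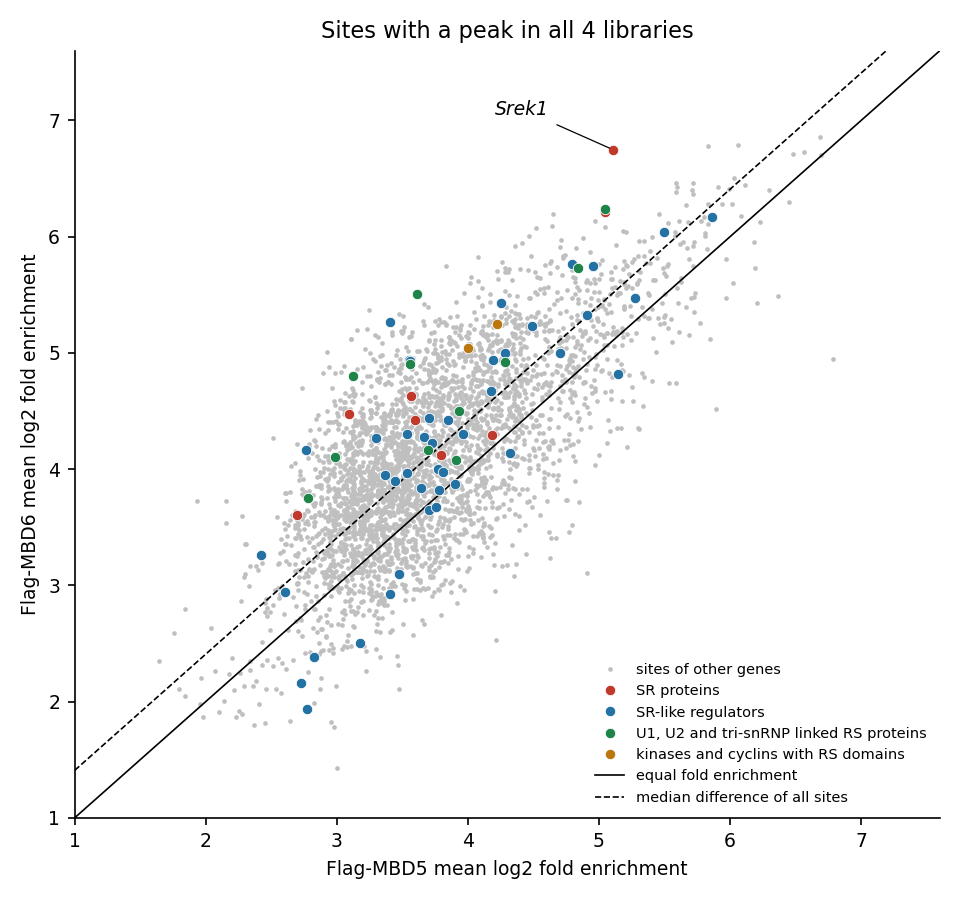
Mean log2 fold enrichment in the Flag-MBD5 libraries (x axis) against that in the Flag-MBD6 libraries (y axis) at the 3566 sites with a peak in all 4 libraries. Grey points are sites of other genes and coloured points the 64 family sites by group. The solid line marks equal values and the dashed line the median difference of all sites (0.41). Of the 64 family sites, 41 lie above the dashed line. Srek1 has the highest Flag-MBD6 value of the family.

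Among the SR proteins, Srek1 itself stood apart from most of its relatives in strength and in difference. Srek1 encodes an SR-related protein that modulates the activity of other SR proteins. Its strong site (chr13:103752306-103752683) lay in exon 9 of 12, at codon 389 of 610. The fold enrichment there reached 27.9 and 42.7 with Flag-MBD5 against 108 and 107 with Flag-MBD6, from 34, 53, 163 and 170 summit reads. Both Flag-MBD6 values lay above both Flag-MBD5 values. The difference was 1.64 in fold enrichment, 0.88 in scaled reads and 0.87 without the added 1. The ratio of the scaled mean reads of each protein was 1.76 (95% counting interval 1.26 to 2.52, from the rounded means). The site ranked 5 in each Flag-MBD6 library by fold enrichment, and 319 and 90 in the Flag-MBD5 libraries. Its difference ranked 41 among the 3566 sites in fold enrichment and 57 in scaled reads. These values are those for which Srek1 was chosen.

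The other Srek1 sites were weak. In exons 10 and 11 peaks were seen with Flag-MBD6 alone, with 14 and 14 reads at codon 498 and 14 and 17 at codon 523. In exon 8, at codon 350, 1 Flag-MBD5 library had 7 reads, against 14 and 20 with Flag-MBD6. A site in the last exon had 16 reads in 1 Flag-MBD6 library.

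Srsf11, Srsf10 and Srsf2 exceeded the median of all sites on each of the 3 scales at all their sites in all 4 libraries. Srsf11, an SR protein with a single RNA recognition motif, had 3 sites in all 4 libraries, and its strongest (codon 406, chr3:158011906-158012448) had a fold enrichment of 29.5 and 37.1 against 80.7 and 67.8. Both Flag-MBD6 values were higher, with a difference of 0.42 in scaled reads. The other 2 differed by 1.38 and 0.83 in fold enrichment, and the Srsf11 site at codon 272 by -0.19 in scaled reads. Srsf10, a splicing repressor that is activated on dephosphorylation, had a fold enrichment of 15.4 and 9.15 against 23.0 and 26.6 at its site in a non-coding transcript, a difference of 1.06. Srsf2, which like Srsf1 was among the first SR proteins described, had 7.15 and 5.88 against 10.0 and 14.8 at codon 161, a difference of 0.91.

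Srsf1 and Srsf4 did not show this. The Srsf1 site at codon 19 (chr11:88047878-88048120) had a fold enrichment of 18.7 and 17.7 against 20.5 and 18.7, and the groups overlapped. The Srsf4 site at codon 267 differed by 0.32 in fold enrichment and by -0.36 in scaled reads. Leaving out Srek1, whose values chose the list, the 7 SR protein sites had a median difference of 0.91 in fold enrichment. It was 0.37 in scaled reads and 0.37 without the added 1. In fold enrichment 3 of the 7 were called higher in Flag-MBD6, against 15% of all sites. Srsf11 alone gave 3 of the 7 sites and 2 of the 3 calls, and Srsf10 gave the remaining call. Srsf3, Srsf5, Srsf6 and Srsf7 had no site in all 4 libraries, with 1 or 2 sites each.

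The Luc7l genes encode U1 snRNP-associated proteins with a zinc-finger pair and an RS tail. Luc7l itself had no site in all 4 libraries. Luc7l2 and Luc7l3 lay higher as a set than the groups of the list on the first 2 scales. This set was formed after the values were seen. All 7 Luc7l2 and Luc7l3 sites in all 4 libraries exceeded the median of all sites in fold enrichment and in scaled reads, with medians of 1.11 and 0.73. Without the added 1 the median was 0.17 and 5 of the 7 exceeded it. The background rate differed by 1.66 (log2) at these sites, against 0.98 over all sites. Among the 5 Luc7l3 sites the difference without the added 1 ran from -1.02 to 1.21, and the part of the background rate in these values was not tested.

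The Luc7l2 site at codon 145 (chr6:38591340-38591551) had the largest difference of the family in fold enrichment and without the added 1, and the next largest after Tra2a in scaled reads. In fold enrichment it had 10.8 and 13.9 with Flag-MBD5 against 46.9 and 43.9 with Flag-MBD6. The groups did not overlap, with a difference of 1.89 in fold enrichment, 1.08 in scaled reads and 1.60 without the added 1, and a ratio of scaled reads of 2.02 (1.20 to 3.59). The Luc7l3 site at codon 395 (chr11:94292868-94293249) had a fold enrichment of 7.18 and 10.6 against 24.8 and 31.4. It too was higher in Flag-MBD6, by 1.68, with a ratio of scaled reads of 1.87 (0.978 to 3.86). The strongest Luc7l3 site, at codon 237 (chr11:94296761-94297166), had 30.3 and 35.9 against 75.9 and 75.2. At codon 329 the values were 25.8 and 31.6 against 63.3 and 44.4. For these sites at codons 237 and 329 of Luc7l3 the ratios of scaled reads were 1.61 (1.15 to 2.31) and 1.67 (1.15 to 2.47).

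The paralogs held sites at matching places. Luc7l, Luc7l2 and Luc7l3 had sites at codons 148, 145 and 148, whose windows are printed above, and again at codons 239, 238 and 237. In Luc7l both were seen with Flag-MBD6 alone, with 30 and 28 reads at codon 148 and 17 and 20 at codon 239. Elsewhere Luc7l had sites with Flag-MBD5 replicate 1, with a fold enrichment of 12.2 at chr17:26269719 and 7.21 at chr17:26270380. Of these, that at 26270380 had 6.06 with Flag-MBD6 replicate 2, and the other had no Flag-MBD6 peak. In Luc7l2 the site at codon 238 had 10 reads in 1 Flag-MBD5 library, against 67 and 62 with Flag-MBD6. The windows of the first pair, Luc7l and Luc7l2, shared 22 bases, and the authors' alignment allowed up to 3 mismatches and placed a read with several matches once, so reads of the first site may be divided between these 2 genes. Both Luc7l2 windows also occur in Gm11889. The windows of the second trio had no long run in common: 8 bases were shared between codons 239 of Luc7l and 237 of Luc7l3 and 6 bases in the other 2 pairs, while a pair that does not match in codon, 103 of Luc7l2 and 237 of Luc7l3, shared 9. The second match therefore rests on the codon numbers alone.

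The other snRNP-linked genes differed among themselves. Prpf38b, a tri-snRNP-associated factor, had sites at codons 229 and 275 with differences of 1.35 and 0.64, but 0.65 and -0.33 without the added 1. Snrnp70, the U1-70K protein, had differences of 0.16 and 0.56 in fold enrichment, and -0.08 and -0.03 in scaled reads. U2af2, the large subunit of the 3′ splice site factor U2AF, had 2 sites, neither in a Flag-MBD5 library.

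Of the SR-like regulators, Srrm2 had the lowest median difference in fold enrichment. It was -0.13 over its 12 sites, none of which exceeded the median of all sites, and it was -0.45 in scaled reads and -0.42 without the added 1, where 4 and 1 sites exceeded it. Srrm1 lay near the median of all sites instead, with 0.37 in fold enrichment, -0.38 in scaled reads and 0.00344 without the added 1. Of its 8 sites 4, 3 and 5 exceeded the median of all sites on the 3 scales, and 7 had a higher mean fold enrichment with Flag-MBD6. The 5 smallest differences in the family were at 4 Srrm2 sites and 1 Srrm1 site.

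The lowest was the Srrm2 site at codon 263 of 2703 (chr17:23811672-23811977), with a fold enrichment of 8.41 and 5.55 with Flag-MBD5 against 3.27 and 4.47 with Flag-MBD6. The groups did not overlap, the difference was -0.84, and the ratio of scaled reads was 0.406 (0.259 to 0.634). At codon 2489 (chr17:23821547-23821757) the values were 8.07 and 10.1 against 5.53 and 5.83, again without overlap, and the ratio was 0.486 (0.348 to 0.680). At codon 390 (chr17:23815249-23815583) the values were 5.49 and 7.98 against 3.55 and 5.65, and here the groups overlapped. The site at codon 2572 of Srrm2 (chr17:23822516-23822721) differed by -0.44, and that at codon 612 of Srrm1 (chr4:135324816-135325256) by -0.48, with overlapping groups in both. The window of the Srrm2 site at codon 2489 also occurs in Gm16581. These 5 sites had high background rates, between 2.08 and 13.3 reads, against 0.254 to 0.593 at the Srek1 site.

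The strongest site of the family by mean fold enrichment was in Srrm1 (codon 826, chr4:135322266-135322491). It had 51.5 and 65.7 with Flag-MBD5 against 73.7 and 70.6 with Flag-MBD6. The Flag-MBD6 values were higher by 0.31 in fold enrichment, whereas the scaled reads were lower, with a ratio of 0.661 (0.504 to 0.870). The Srrm1 site at codon 310 (chr4:135340410-135340622) had 42.2 and 35.5 against 61.2 and 32.01, with overlap. Over the 64 sites the interval of the scaled read ratio lay above 1 at 5, against 1.82% of all sites, and below 1 at 7, against 21.2% of all sites. The 5 were the sites of Srek1, Luc7l2 and Tra2a named here and the Luc7l3 sites at codons 237 and 329. The Srek1 site among them is the one whose values chose the list. The 7 were 5 sites of Srrm2, the strong Srrm1 site and 1 site of Acin1, which encodes a subunit of the ASAP complex.

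Rbm25, Rbm39 and Son lay above the median of all sites in fold enrichment and in scaled reads. Rbm25, a regulator of alternative splicing that binds U1-associated factors, had 5 sites in all 4 libraries, of which 4 exceeded the median of all sites also without the added 1, where the 5 ran from -0.57 to 0.87. At codon 391 (chr12:83668102-83668619) the fold enrichment was 42.35 and 48.0 against 88.7 and 48.6, and at codon 292 (chr12:83663974-83664333) it was 25.9 and 29.7 against 67.6 and 43.5. The second Flag-MBD6 library was lower at both, with a background rate of 2.19 and 1.64 reads against 0.611 in the first. Rbm39, a U2AF-related coactivator, had 25.5 and 37.6 against 48.8 and 59.0 at codon 43 (chr2:156172737-156173010), a difference of 0.79. Son, a speckle scaffold, had 6.76 and 6.84 against 16.1 and 19.97 at codon 113 (chr16:91654688-91654973), a difference of 1.40. The other Son sites in all 4 libraries differed by 0.49 and 0.58.

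Of the remaining regulators with a site in all 4 libraries, Ppig, a cyclophilin with an RS domain, differed by 1.37 at its site and Cwc22, which loads the exon junction complex, by 0.97. Pnn, a subunit of the related PSAP complex, differed by 1.17 and 0.61. Acin1 sites ran from -0.38 to 0.74. Bclaf1, which is related to Thrap3, had 36.5 and 24.8 against 32.7 and 49.4 at codon 808 (chr10:20339722-20340044), where the groups overlapped. Scaf11, an SR-related factor, had a difference of -0.06 in fold enrichment and -0.86 in scaled reads. Thrap3, Nktr and Rnps1, a subunit of the ASAP complex, had no site in all 4 libraries.

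Among the kinases and cyclins, Clk1, which phosphorylates SR proteins, differed by 1.04 at codon 11 and Prpf4b by 1.02 at codon 35. Both were called higher in Flag-MBD6 in fold enrichment, as were 15% of all sites. In scaled reads they differed by 0.36 and 0.34, and without the added 1 by 0.20 and 0.62. Ccnl1 and Ccnl2, the cyclin L genes, had 4 and 2 sites, and none in all 4 libraries. In the plot of differences by gene, all points of Srek1, Srsf2, Srsf10 and Srsf11 lay right of the median of all sites on every scale. The same held for Tra2a, Pnn, Son, Rbm39, Ppig, Cwc22, Luc7l2, Clk1 and Prpf4b. All points of Srrm2, Scaf11, Srsf1 and Srsf4 lay left of that median in fold enrichment.

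**Figure D3:**
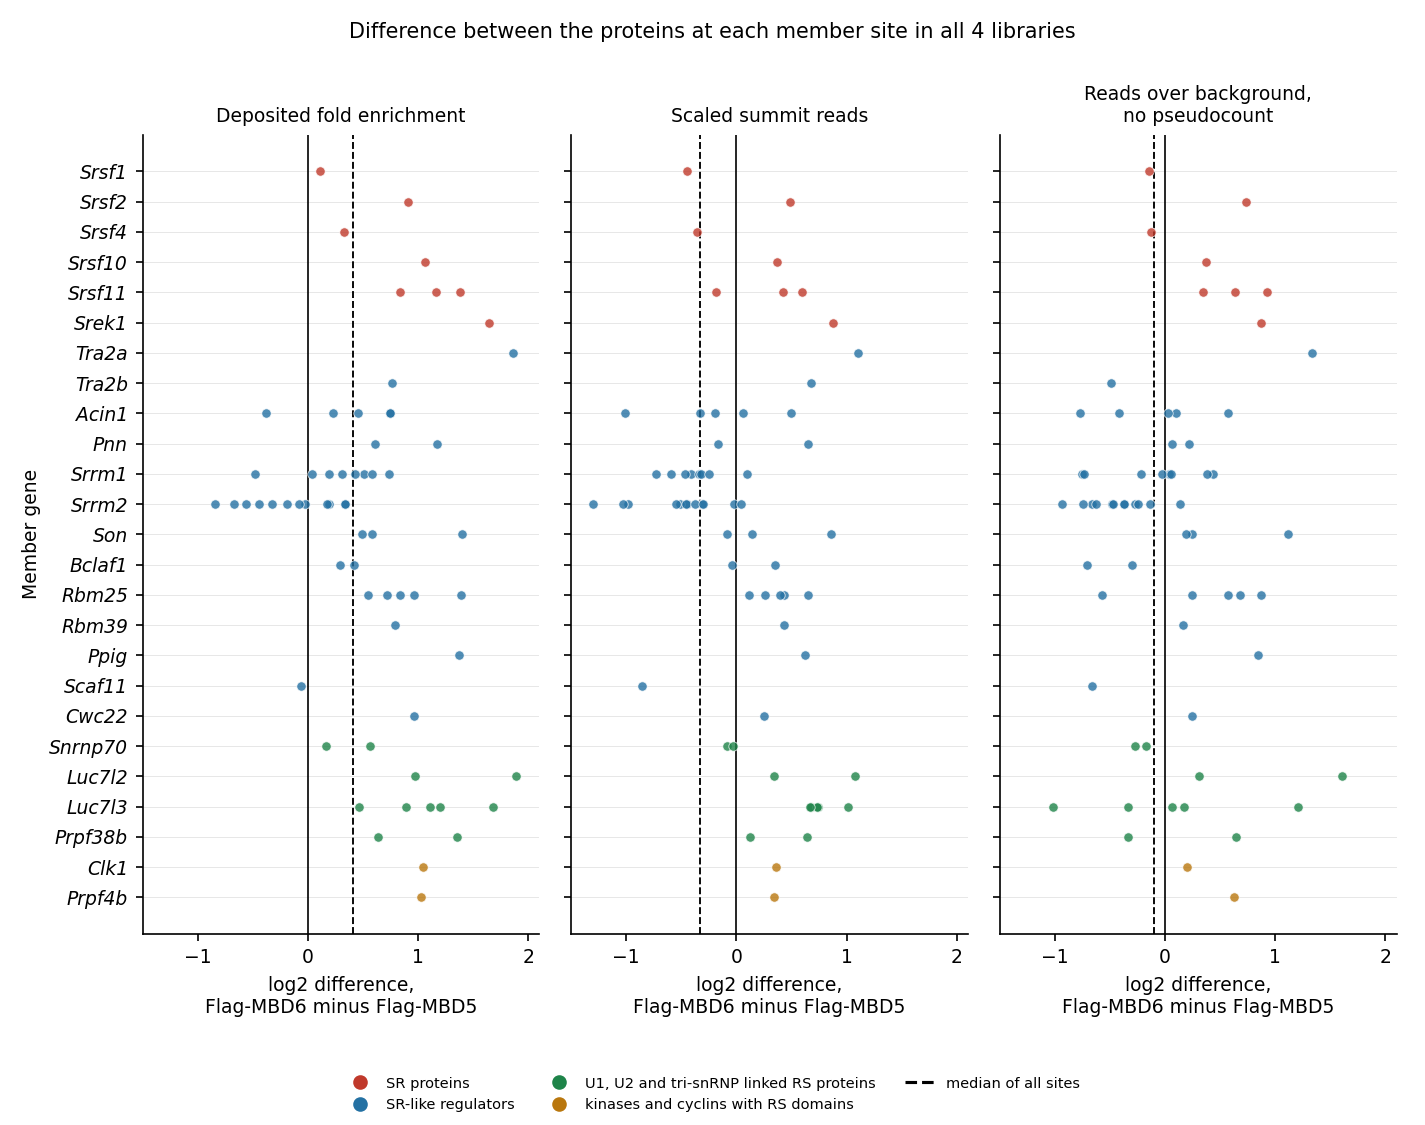
Log2 difference, Flag-MBD6 minus Flag-MBD5, at each of the 64 family sites in all 4 libraries (points, coloured by group), by gene (y axis), in deposited fold enrichment, in scaled summit reads and in reads over background without the added 1 (panels, left to right). Dashed lines mark the medians of all 3566 sites (0.41, -0.33 and -0.10). Srek1 sits at 1.64, 0.88 and 0.87, and Srrm2 has 12 points between -0.84 and 0.34 in fold enrichment.

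**Figure D4:**
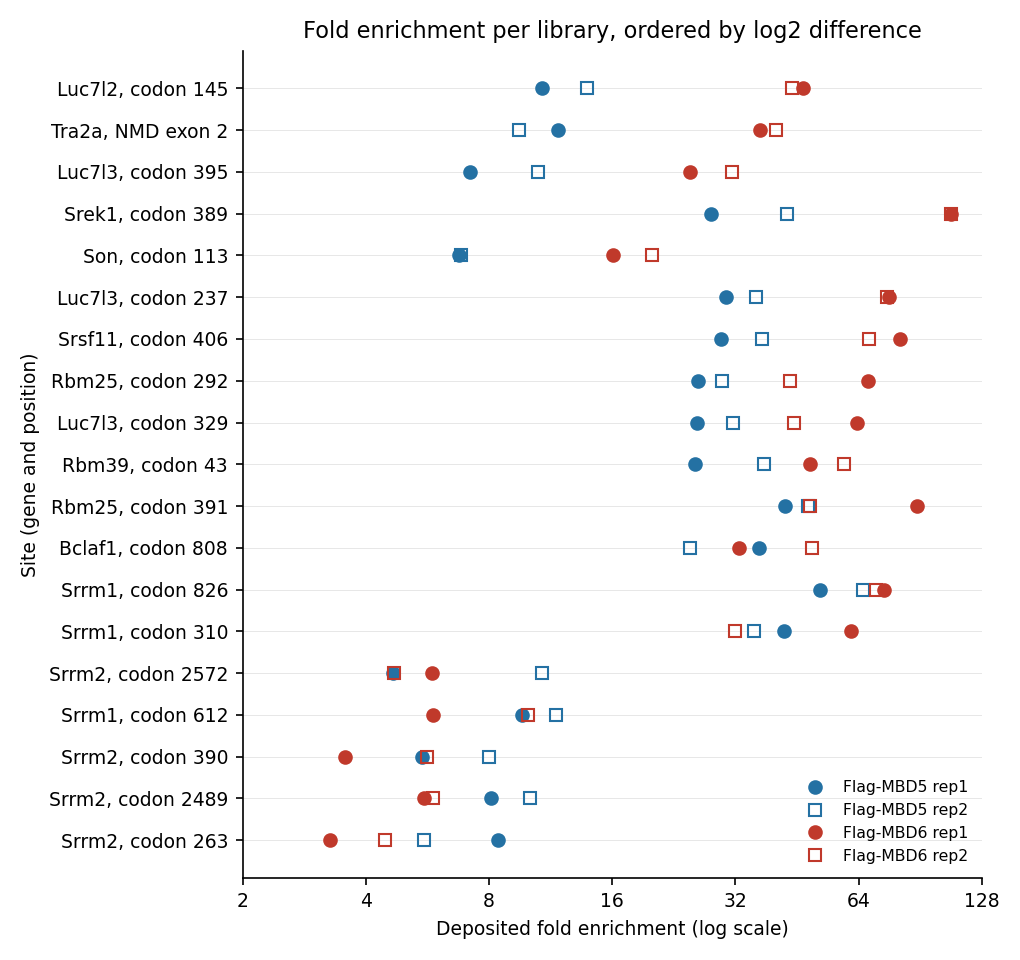
Deposited fold enrichment (x axis, log scale) in each of the 4 libraries at the 19 family sites with the highest mean or the largest or smallest difference, ordered by log2 difference from 1.89 (Luc7l2, codon 145) to -0.84 (Srrm2, codon 263). Blue points are Flag-MBD5 and red points Flag-MBD6 libraries, with squares for replicate 2, and both red points lie right of both blue points in the upper 11 sites.

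The sites lay in coding sequence about as often as other sites in protein-coding genes. The base 15 nt inside the 5′ end fell in coding sequence at 147 of 162 sites (90.7%, 85.3 to 94.3), against 89.4% of the 10619 sites in protein-coding genes. The 78.6% of all sites includes sites in non-coding genes and between genes, which the rule keeps out of the family. The 3′ UTR held 3, in Srsf2, Srsf7 and Srsf10, and the 5′ UTR held none. Introns held 3 and exons of non-coding transcripts 3. Class was read near the 5′ end because the authors extended reads to 150 bases without splicing, so a peak can run past its exon. At the midpoint the coding share was 65.4%, against 60.9% of sites in protein-coding genes.

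The remaining 6 sites lay in exons used only by NMD transcripts, one each in Tra2a, Tra2b, Srsf3, Srsf7, Rbm39 and Srrm1. That was 3.70% of the family's sites against 0.179% of sites in protein-coding genes, and 6 of the 19 sites of this class in the whole data. The family is also rich in such annotation: 32 of the 37 genes have an NMD transcript, against 33.0% of protein-coding genes with a site, and NMD-only exons make up 5.12% of the family's exonic bases against 1.65%. None of the 6 overlapped an annotated small RNA gene on the same strand.

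The pair of Tra2 genes, which encode SR-like activators that bind GAA-rich enhancers, had the strongest of these. Tra2a had a fold enrichment of 11.8 and 9.48 with Flag-MBD5 against 36.7 and 40.2 with Flag-MBD6 in exon 2 of 9 of an NMD transcript (chr6:49252703-49253073). The difference was 1.86 in fold enrichment, next after Luc7l2, and 1.10 in scaled reads, the largest of the family, with a ratio of scaled reads of 2.12 (1.15 to 4.21). Tra2b had 12.2 and 11.1 against 18.3 and 21.3 in exon 2 of 10 (chr16:22258912-22259254), the same exon number as in its paralog, and had no other site. The Tra2b groups did not overlap, with a difference of 0.76 in fold enrichment and 0.67 in scaled reads but -0.49 without the added 1.

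Srsf7 had a site with Flag-MBD6 alone, with 22 and 28 reads, in an NMD exon of 460 bases (chr17:80204563-80204736). Srsf3, its closest relative, had 22 reads in 1 Flag-MBD6 library in an NMD exon of 456 bases. The Rbm39 and Srrm1 sites of this class had 14 and 13 reads, each in 1 Flag-MBD6 library. Thus 2 of the 6 sites were in all 4 libraries, 1 was in both Flag-MBD6 libraries and 3 rested on Flag-MBD6 replicate 2. Without that library the share of sites in this class was 2.03%.

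**Figure D5:**
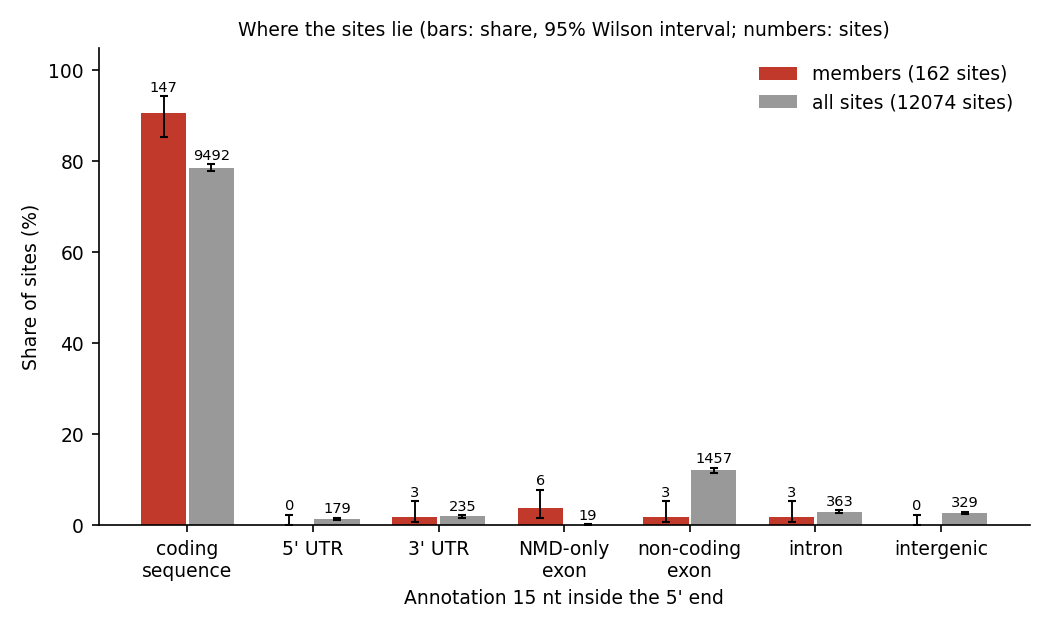
Share of sites (y axis, percent, with 95% Wilson intervals) by annotation of the base 15 nt inside the 5′ end (x axis), for the 162 family sites (red) and all 12074 sites (grey), with the number of sites above each bar. Coding sequence holds 90.7% against 78.6%, or 89.4% of sites in protein-coding genes alone, and exons of NMD transcripts only hold 6 of 162 against 19 of 12074.

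The family's windows did not stand out from those of all sites in composition, but its sites with higher Flag-MBD6 values were rich in A and poor in C. Over 154 family windows A made up 39.0% and C 20.1%, against 36.8% and 21.4% over 11036 windows of all sites. GAAGAA, searched on the sense strand only, occurred in 15.6% of the windows against 18.3% of all windows, and AGAAGA, which overlaps it, in 19.5% against 19.0%. GGAGA occurred in 7.79% against 9.33%. G preceded the 5′ end at 72.7% of family sites and 75.2% of all sites, the base after which RNase T1 cuts.

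At the 16 sites called higher in Flag-MBD6 the windows held 46.9% A and 12.5% C, against 40.2% and 18.4% at all sites so called. Family sites above the median difference of all sites held 42.6% A and 15.2% C, and those at or below it 34.5% A and 26.5% C. Over all sites the same split gave 38.6% A and 19.5% C against 33.0% A and 23.1% C. The Son window printed above holds 66.7% A, and the Srrm2 window at codon 2572 holds 3.33% A and 53.3% C. This split uses the measured difference, and its windows are not independent, since Srrm2 gives many of the low values.

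Other splicing genes give the frame. Of 40 further RS-domain genes and SR kinases, 32 had a site, and their 41 sites in all 4 libraries had a median difference of 0.83 in fold enrichment and 0.14 in scaled reads. Of these 41, 15 were called higher in Flag-MBD6 in fold enrichment (36.6%), against 15% of all sites. Cpsf6, a cleavage factor subunit with an RS-like domain, had the largest difference there (1.63), followed by Rsrc2 (1.58), Arglu1 (1.53) and U2surp (1.53). Of 56 core spliceosome genes on a separate list, 37 had a site. Their 65 sites in all 4 libraries had a median difference of 0.40, close to the 0.41 of all sites. Of these 65, 11 were called higher in Flag-MBD6 (16.9%), against 15% of all sites. Cwc27 (1.57) and Crnkl1 (1.52) had the largest differences of that list. No site of either list was called higher in Flag-MBD5, against 0.869% of all sites.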

How the data were processed

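CLIP-seq peaks of Flag-MBD5 and Flag-MBD6 (2 libraries each) were analysed, and the 4 input libraries enter no comparison. According to the study's methods, the authors filtered, clipped and collapsed reads, removed rRNA, aligned to mm10 with Bowtie 1.0.0 (up to 3 mismatches and 10 places, 1 reported) and called peaks per strand and library with MACS2 2 (q of 0.01, reads extended to 150 bases). SAMtools 1.16.1 is also named in the submitters' processing notes. The deposited peak lists hold a fold enrichment at the summit, a −log10 p and a −log10 q, and the authors' score column is 10 times the −log10 q as a whole number.

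Summit reads and the background rate were solved for each peak (100%) out of its deposited enrichment and −log10 p, and depth was estimated from the lowest background rate and a genome size of 130000000. Median summit reads were 16 to 21, which limits the precision of single sites. Overlapping same-strand peaks (1 bp) were joined into sites. The difference used the mean log2 fold enrichment at sites with a peak in all 4 libraries. Where a site held several peaks of a library, the one with the highest fold enrichment was used. Region classes and 30-base windows were taken from GENCODE M21 annotation and transcripts, and 154 of 162 sites had a window. Shares have Wilson intervals. Read ratios have conditional binomial intervals, for which the rounded mean reads of each protein were taken as if they were 1 count. Both kinds of interval cover counting error only. Python 3.11.15, numpy 2.4.6, pandas 2.3.3, scipy 1.17.1, statsmodels 0.14.6, intervaltree 3.1.0 and matplotlib 3.10.9 were used, and the scripts were tested on simulated data. Calls were simulated at equal depth and equal background rate with a fold of 1.5, so the effect of depth on the calls was not tested.

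The members and gene lists were chosen with earlier results of these data known. Sites described in full were the 10 with the highest mean, the 5 largest and 5 smallest differences, and up to 6 with the most reads in one protein alone. Other sites are given to account for each gene, and of other gene lists the largest differences. The residues encoded at the sites were not analysed here. The alternatives were a stricter q, other overlap, read scaling, centring and fold limits, a replicate block, other positions for the class, and leaving out each library. The ratio without the added 1, the values without Srrm2 and those without windows found in other genes were chosen after seeing the data.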

Additional observations from a re-analysis of the deposited data

How the results depend on the processing

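The family's median difference kept its sign under each alternative, and it was the only value graded for direction. Other medians did not keep theirs. In scaled reads the median of all sites went from 0.41 to -0.33 and that of Srrm1 from 0.37 to -0.38. Of 44 values recomputed under alternatives other than a left-out library, 27 stayed within their limit and 17 moved. The median difference of 0.58 became 0.0772 in scaled reads and 0.17 after centring on all sites, and, in alternatives chosen after seeing the data, 0.0595 without the added 1 and 0.74 without Srrm2. The 16 and 0 calls higher in Flag-MBD6 and Flag-MBD5 became 3 and 3 in scaled reads and 4 and 2 after centring. Without the added 1 they were 4 and 1. At a fold of 1.5 they were 31 and 2, but the share of all sites called at that fold was not computed. The share of Flag-MBD5 regions found with Flag-MBD6 fell to 85.9% at a reciprocal overlap of 50% and was 100% where a peak in either library counted, and the Flag-MBD6 share was then 63.0%. The coding share was 65.4% at the midpoint.

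Leaving out each library in turn gave a median difference of 0.51 to 0.68. It gave 15 to 21 calls higher in Flag-MBD6 and 0 to 1 in Flag-MBD5. The share of all sites called was not computed for these settings or for the replicate block below. The shared part of the Flag-MBD5 regions was 92.5% to 100% and that of the Flag-MBD6 regions 42.6% to 57.5%. The share in NMD exons was 2.03% to 3.92%. Differences within replicate numbers, as a replicate block, gave 10 calls higher in Flag-MBD6 and left the median at 0.58. Same-numbered libraries did not deviate together (r of 0.03 across 3566 sites, which are not independent). Because the libraries of a protein differed by less than sampling noise, this cannot show whether the numbers pair the libraries.

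Since the libraries of a protein were counted as 1 sample, no difference has a test. Weak sites are limited by reads, since the lowest summits held 5 to 7 reads in the family.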

Other observations

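Outside these genes, 13 sites in 9 other genes lay in exons used only by NMD transcripts, and 5 of the 13 overlapped an annotated small RNA gene on the same strand. Of the 13, 8 had peaks in both Flag-MBD6 libraries and 4 in both Flag-MBD5 libraries. In Rabggtb the site over Snord45c (chr3:153912000-153912193) had 107 and 102 summit reads with Flag-MBD5 against 127 and 122 with Flag-MBD6, a difference of -0.35 in log2 fold enrichment. The Taf1d site over Gm25791 in exon 8 of 10 differed by -0.35 as well, and the Rps13 site over Snord14a by -0.03. Of the 13 sites, 4 had a peak in all 4 libraries, and these 4 all overlapped a small RNA gene, so they are not like the Tra2a and Tra2b sites, which overlapped none. The genes were named after their values were seen, and no difference was tested.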
